A study of Ginkgo biloba with 9 samples.

Results

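The net change of an autumn season was measured in leaves of the ginkgo tree (Ginkgo biloba), a gymnosperm that sheds its leaves each year, by comparing yellow with green leaves. Leaf RNA was sequenced in 3 libraries from yellow leaves sampled on November 8, labelled as the senescence stage, and in 3 libraries from green leaves sampled on September 12, labelled as mature, 57 days earlier. These 6 libraries were chosen by their titles, out of 9 in the series. The other 3 libraries came from turning leaves of October 26 and did not enter the test. All libraries came from 3 healthy adult trees in the open at one site. No genotype difference or treatment was given, and the labels do not say which library came from which tree. Each stage was sampled on 1 day, so that leaf stage and calendar date cannot be told apart. With the library number as a block, p-values reflect how far the yellow-green difference varied between numbers.

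In autumn a leaf breaks down its chlorophyll and dismantles its chloroplasts, and nitrogen and other nutrients are moved out before the leaf is shed. The yellow colour appears as carotenoids remain while the green pigment is lost. This is an active, genetically controlled process in which many genes are switched on while genes of photosynthesis decline. The deposited identifiers are not paired with gene names in the sources used here, so that none of the gene models described below is assigned to these processes. For the same reason the labelled tissue was not checked against marker genes, and other cell types were not assessed. In whole leaves, fewer cells of a type and less RNA per cell cannot be told apart.

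The libraries held 24066509 to 25466370 counts in yellow leaves and 23766331 to 32264081 counts in green leaves. Of 43834 gene models in the table, 12136 had 0 counts in all 6 libraries and 22397 passed the filter on low counts. The tested models held 99.8% to 99.9% of each library. The yellow libraries differed less from each other in total than the green ones. The comparison was defined as paired by library number, so that the number was a block in the test. Libraries with the same number in their titles deviated together from their stage means, with r across models of 0.36, 0.49 and 0.47 for numbers 1, 2 and 3.

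Most tested models changed between September and November. Relative to green leaves, a rise in yellow leaves was called for 7048 models and a fall for 7939, together 14987 of 22397, or 66.9% (edgeR quasi-likelihood test with the library number as a block, Benjamini-Hochberg adjusted p below 0.05). The higher models were 31.5% and the lower ones 35.4% of those tested. Among called models the middle of the change was 1.51 on the log2 scale for those that rose and -1.79 for those that fell. A change of more than 2-fold was itself past the test for 8180 models, or 36.5%, of which 3678 were higher and 4502 lower in yellow leaves (edgeR glmTreat, adjusted p below 0.05).

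The balance of rises and falls turned with the size of the change. Among called models with at least a 4-fold fitted change, 2442 were higher and 3449 lower in yellow leaves, so that higher models made up 41.5%. At 16-fold or more, 674 were higher and 640 lower. At 64-fold or more, 232 were higher and 122 lower, and higher models made up 65.5%. Without composition factors the counts were 472 higher and 1268 lower at 16-fold or more, and 168 higher and 185 lower at 64-fold or more, so that the excess of rises among the largest changes was not seen on library totals. With upper-quartile factors it was seen at 64-fold (194 higher, 150 lower) and not at 16-fold (577 higher, 887 lower). The largest fitted changes include models with 0 counts in 1 stage, whose fitted size depends on a prior count. Models at least 16-fold lower held 1.20% of green library totals, and those at least 16-fold higher held 9.73% of yellow library totals. A low level in the higher stage limits how large a change can be measured. The part of this limit in the balance was not tested.

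**Figure D1:**
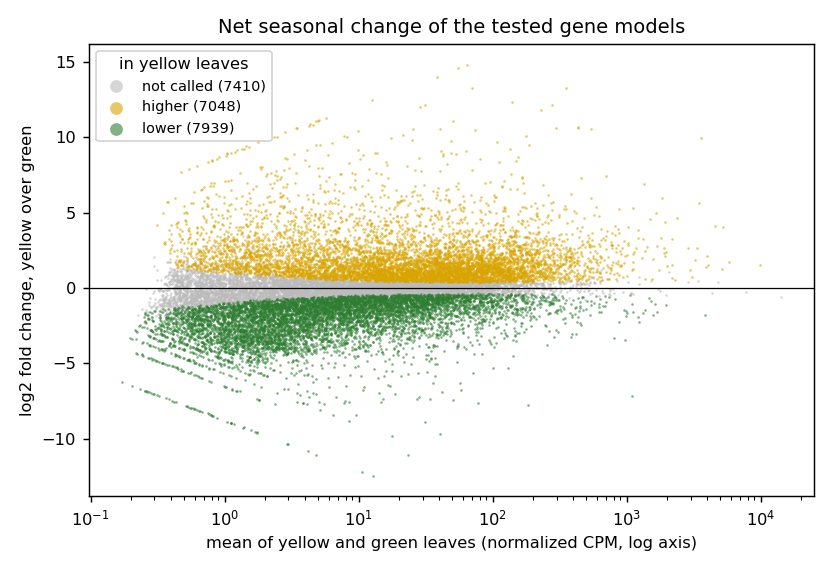
Fitted log2 fold change of yellow over green leaves (vertical axis) against the mean of both stages in normalized CPM (horizontal log axis), 1 point for each of the 22397 tested gene models. The 7048 models higher in yellow leaves are in yellow, the 7939 lower ones in green and the 7410 not called in grey. Slanting rows of points at the left edge are models with 0 counts, or very few, in 1 stage.

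The share of rises among the calls depended on how libraries were scaled. Factors of the trimmed mean of M values (TMM), which correct library totals for composition, averaged 0.793 in yellow and 1.26 in green leaves. On that scale 47.0% of the calls were rises, whereas upper-quartile factors gave 36.7% and unscaled totals 25.7%. DESeq2 size factors gave 49.9% within edgeR (7468 higher, 7483 lower), and the DESeq2 Wald test with the block gave 50.5% (7423 higher, 7271 lower). TMM put the middle of the log2 fold changes of the tested models at -0.12, upper-quartile factors put it at -0.43 and unscaled totals at -0.80. Directions are given on the TMM scale here. Under all 4 scalings tried, DESeq2 size factors among them, 4096 of the models higher with TMM were called higher, which is 58.1%, and 7483 of the lower models were called lower, which is 94.3%.

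Of the 7410 models not called, 3866, or 52.2%, had a 95% confidence interval of the fold change that lay within 2-fold in either direction. Of these, 2504 averaged at least 10 normalized CPM (counts relative to a common library size on the TMM scale) in yellow and in green leaves. A further 580 models that were not called had a fitted change of at least 2-fold, so that their change was not detectable at this depth and spread. The median standard error of the log2 fold change was 0.41 for the 7315 models with a mean of 10 to 100 counts per library, of which 60.6% were called. It was 0.21 at 100 to 1000 counts, where 67.7% of 9622 models were called, and 0.16 at 1000 to 10000 counts, where 74.2% of 4942 models were called. Above 10000 counts it was 0.19, and 78.6% of 350 models were called.

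The seasonal change was alike in the 3 pairs of same-numbered libraries. Among the tested models, 54.2%, 54.9% and 53.3% differed by at least 2-fold between yellow and green leaves in pairs 1, 2 and 3. At least 2-fold higher levels in yellow leaves in every pair were found for 3865 models, and at least 2-fold lower levels in every pair for 4947. A model at least 2-fold higher in 1 pair and at least 2-fold lower in another was found in 211 cases, 0.942% of those tested. In 49 of them pair 3 went at least 2-fold one way and pairs 1 and 2 both at least 2-fold the other way. The same held for pair 1 against the other pairs in 10 models and for pair 2 in 13. Across the 22397 models, the log2 fold changes of pairs 1 and 2 correlated with r = 0.93, those of pairs 1 and 3 with r = 0.88 and those of pairs 2 and 3 with r = 0.89. These pairs share no library, but models are not independent replicates and all pairs share the sampling dates. The SD of the log2 fold change over the 3 pairs had a median of 0.36 per model, with quartiles of 0.21 and 0.62.

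Yellow and green libraries did not overlap in normalized CPM for 15425 of the tested models, or 68.9%. In 7122 models, or 31.8%, every yellow library lay above every green library, and in 8303 models, or 37.1%, below. Of the 14987 called models, 13832 were among them, and for the other called models the ranges of the stages overlapped.

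Far fewer models passed the test between library numbers than between the dates. The tests differ in power, since each number has 1 library per stage and each stage has 3 libraries. The counts of calls are therefore not a comparison of effect sizes. In the same fit 3661 of 22397 models had an unadjusted p below 0.05 between numbers (edgeR quasi-likelihood test of the block). With the stage held fixed, 342 models, or 1.53%, differed between the 3 numbers (edgeR quasi-likelihood test of the block, adjusted p below 0.05), and limma-voom called 683. Number 3 differed from number 1 for 245 models and from number 2 for 377 models, and number 2 differed from number 1 for 15 models. With both libraries of number 1 left out, 0 of 22608 models passed the edgeR test between the remaining numbers, 3405 had an unadjusted p below 0.05 and limma-voom called 433. Without number 2 or number 3 edgeR called 58 and 218 models. With the turning libraries added to the fit, 1568 models differed between numbers. The yellow-green count moved by less than 1.5 times in each of these cases.

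The pool of messenger RNA counts was exchanged to a large part. For a pair of libraries, the share of counts moved between models is the sum of all gains in percent of library counts, and equals the sum of all losses. Between yellow and green leaves of the same number it was 38.3%, 40.7% and 38.0% for numbers 1, 2 and 3, with a mean of 39.0% ± 1.49 (SD, n = 3 pairs). Between yellow libraries it was 10.9% to 17.7%, and between green libraries 9.30% to 15.0%. The lowest value of each stage was that of libraries 1 and 2. Library 3 differed from libraries 1 and 2 by 17.0% and 17.7% in yellow leaves and by 15.0% and 14.6% in green leaves. Each yellow-green pair thus lay above every pair within a stage. Yellow and green libraries of different numbers differed by 34.6% to 44.2%, a range that includes all 3 values of the same-numbered pairs. The lowest of these was yellow library 1 against green library 3, and the highest yellow library 3 against green library 1.

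**Figure D2:**
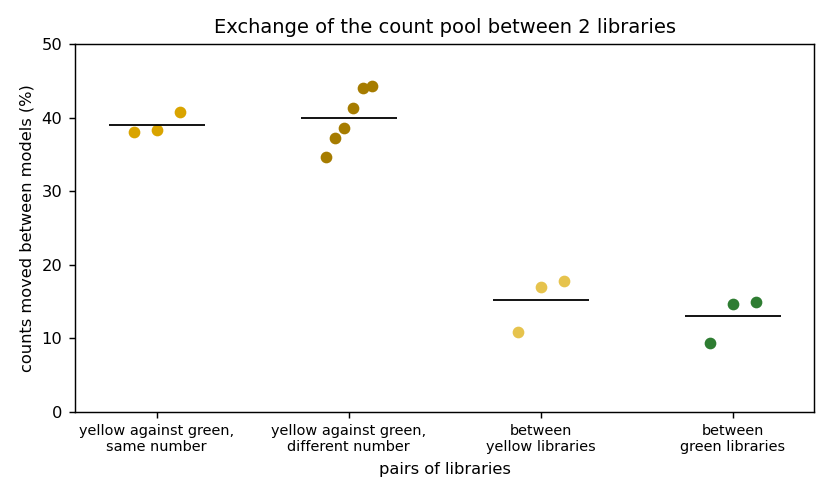
Share of library counts that would have to move between gene models to turn one library into the other, in percent, for pairs of libraries (points) with the mean of each kind (lines). The 3 same-numbered yellow-green pairs lie between 38.0% and 40.7%, and the pairs within a stage reach at most 17.7%.

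On library totals, the gains were carried by fewer models than the losses. On that scale the median log2 fold change of the tested models was -0.80, against -0.12 with TMM. Fewer models thus gained than lost, and how concentrated gains and losses are on the TMM scale was not tested. In pair 1, 216 models made up 50% of the gain in yellow leaves and 423 models made up 50% of the loss. In pair 2 these numbers were 172 and 425, and in pair 3 they were 211 and 622. Gains were seen for 9400 to 9952 models per pair and losses for 19302 to 19599, models below the filter included. The 10 models with the largest gain added 4.28 to 5.84 percentage points of library counts, and the 10 with the largest loss gave up 3.27 to 5.18 points.

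Models called higher held 71.5% ± 2.47 of the counts in yellow leaves and 34.2% ± 3.54 in green leaves (SD, n = 3). Models called lower held 8.58% ± 0.65 in yellow leaves and 35.0% ± 2.44 in green leaves. Models not called held 19.8% ± 1.86 in yellow leaves and 30.7% ± 1.21 in green leaves. The calls were made on these same libraries, so that these shares describe the calls and carry no test. They are shares of library totals without a TMM factor. In green library 3 the models called higher already held 38.3%, against 32.2% and 32.1% in green libraries 1 and 2. The turning libraries, which did not enter the test, had 49.8% ± 2.48 of their counts in models called higher and 21.8% ± 1.54 in models called lower (SD, n = 3), between the values of yellow and green leaves.

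**Figure D3:**
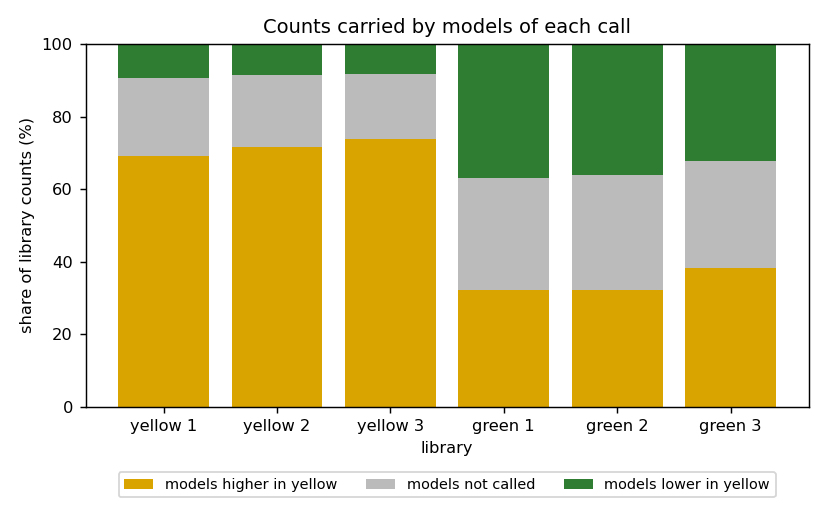
Share of library counts (percent, bars from 0) held by models called higher in yellow leaves, not called, and called lower, for the 3 yellow and the 3 green libraries. Models called higher hold 69.0% to 73.9% in yellow libraries and 32.1% to 38.3% in green libraries.

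Models selected for a strong rise held a large part of the yellow leaf's counts. They were selected in these same libraries, so that the shares describe the selection and carry no test. The selection used the TMM scale, whereas the shares are of library totals. With library totals 1508 models were at least 4-fold higher and 5384 at least 4-fold lower. The 2442 models at least 4-fold higher held 29.8%, 32.2% and 35.6% of the counts in yellow libraries 1, 2 and 3, and 5.57%, 5.53% and 7.65% in green libraries 1, 2 and 3. The 3449 models at least 4-fold lower held 0.822%, 0.739% and 0.721% in the yellow libraries and 8.73%, 9.42% and 7.54% in the green libraries. The strongly falling models were more numerous than the strongly rising ones. They held more of the counts in green libraries 1 and 2 and about as much in green library 3, and held far less than the rising models in each yellow library.

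On the TMM scale, heavily counted models rose more often than they fell and sparsely counted models fell more often than they rose. Models were divided into 3 classes of equal size by their mean count share in the turning libraries. These took no part in the yellow-green test, so that the noise of the tested libraries did not set the class. They were sampled between the green and yellow dates, however, so that a change already under way also enters the class. Models called higher held 49.8% of turning counts against 34.2% of green counts, and models called lower 21.8% against 35.0%. The part of this in the balance of each class was not tested. Which models entered the classes was set by the low-count filter, applied to the yellow and green libraries without TMM factors. A sparsely counted model could pass it through a single stage. No classes were formed without the filter, and its part in the balance of each class was not tested. Gene lengths were not given, and the classes are of read counts, not of transcript numbers. In the class with the most counts, above 21.8 CPM in turning leaves, a rise in yellow leaves was called for 3506 models and a fall for 1805. The median of the log2 fold change in that class was 0.38 on the TMM scale and turned to -0.29 with library totals, where 1953 models were higher and 3271 lower. In the class with the fewest counts, up to 3.17 CPM, 1483 were higher and 3326 lower, with medians of -0.85 with TMM and -1.51 with library totals. In the middle class 2059 models rose and 2808 fell, with medians of -0.20 with TMM and -0.87 with library totals. With 5 classes the share of higher models among calls was 32.6%, 29.8%, 42.8%, 55.5% and 70.9% from the fewest to the most counts. The order of the 3 medians was the same with both scalings, which shift all models by about the same amount.

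**Figure D4:**
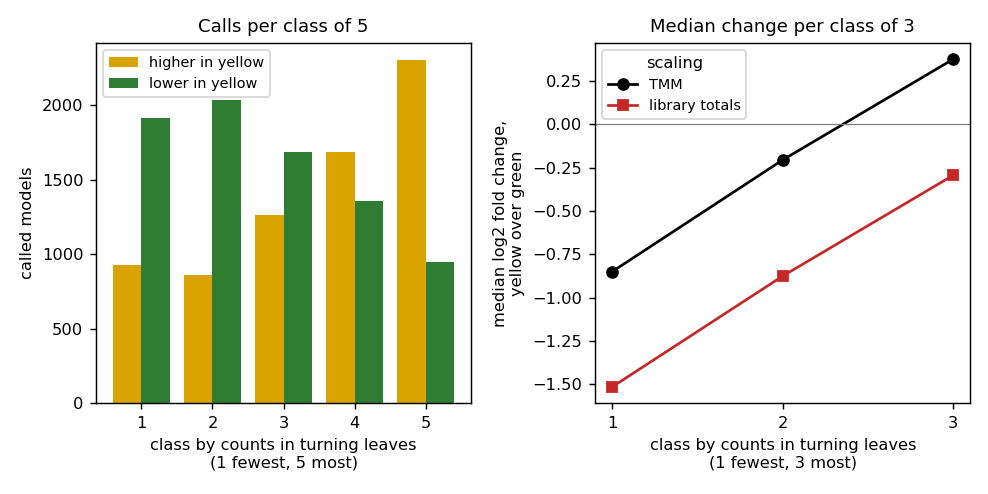
Left, numbers of models called higher and lower in yellow leaves in 5 classes of equal size by counts in the turning libraries (class 1 fewest, class 5 most). Right, median log2 fold change of yellow over green leaves in 3 such classes with TMM scaling and with library totals, which was 0.38 and -0.29 in the class with the most counts.

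The number of models at a given level also depended on the scale. On library totals, 9251 ± 83.6 models reached 10 CPM in yellow leaves and 11270 ± 89.4 in green leaves (SD, n = 3; exact permutation test, two-sided p = 0.1, the smallest that 3 against 3 libraries can give). At 100 CPM the numbers were 2028 ± 53.01 in yellow and 2048 ± 82.0 in green leaves, and the stages overlapped (exact permutation p = 0.8). At 1000 CPM, 91, 99 and 103 models were found in yellow libraries and 82, 77 and 72 in green libraries, without overlap (exact permutation p = 0.1). With TMM-scaled library sizes the yellow leaves had 2553 ± 107 models at 100 CPM, against 1528 ± 38.6 in green leaves (exact permutation p = 0.1). At 10 CPM the TMM scale gave 10105 ± 100.5 models in yellow and 10249 ± 58.6 in green leaves, with overlap (exact permutation p = 0.2). Yellow lay below green there in each same-numbered pair, at 10045 and 10196, 10049 and 10312, and 10221 and 10240 models in yellow and green libraries 1, 2 and 3. At 1000 CPM the TMM scale gave 121, 138 and 146 models in yellow and 55, 57 and 52 in green libraries, a difference of 80.3 against 20.7 on library totals (exact permutation p = 0.1). The permutation tests did not use the library numbers.

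Few models were at 0 counts throughout one stage and clearly counted in the other. With 0 counts in all 3 green libraries and at least 10 counts in every yellow library, 36 models were silent in green but not in yellow leaves. Their level in yellow leaves ran from 0.581 to 128 normalized CPM with a median of 2.98. Set against a floor of 3 counts summed over green leaves, which was 0.0284 CPM, their levels were at least 20.4-fold to at least 4506-fold higher in yellow leaves. With 0 counts in all 3 yellow libraries and at least 10 in every green library, 62 models were silent in yellow but not in green leaves, at 0.342 to 25.8 CPM in green leaves with a median of 1.16. Against a floor of 3 counts summed over yellow leaves, or 0.0511 CPM, they were at least 6.69-fold to at least 505-fold lower in yellow leaves. The floors cover counting error only, not the spread between libraries. The rule used raw counts and the floors differ between stages, so that the 36 and the 62 are not directly comparable.

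Of the 36 models silent in green leaves, 22 had identifiers that begin with Gb_ and 14 had the other prefix of the table. Of the 62 silent in yellow leaves, 59 were Gb_ models and 3 had the other prefix. The other prefix was carried by 1994 of the 43834 models in the table and by 1476 of the 22397 tested models. The prefix counts of silent models were not tested. Turning leaves had counts in every library for 10 of the 36 and for 37 of the 62, and no counts in any library for 5 and 2. These numbers were sensitive to single libraries, since each library sets part of the rule. Without green library 1 or 3, 75 and 64 models were silent in green leaves. Without yellow library 1, 2 or 3, or green library 3, the models silent in yellow leaves numbered 118, 117, 105 and 119.

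Gb_ models made up most of the table, and 20921 of 41840 were tested. Of these, 6545 rose and 7561 fell in yellow leaves, a called share of 67.4%, with a median log2 change of -0.14. The other prefix, whose origin the sources used here do not give, was carried by 1994 models, of which 1476 were tested. Among them 503 rose and 378 fell, a called share of 59.7%, with a median of 0.11, which upper-quartile factors put at -0.19 and library totals at -0.55. Rises made up 57.1% of the calls among models of the other prefix and 46.4% among Gb_ models, a difference that was not tested. With library totals these shares were 34.4% and 25.2%.

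The models with the largest changes were taken among called models with at least 10 counts in each of the 6 libraries, a mean of at least 100 normalized CPM in the higher stage and no overlap between stages, so that each fold change rests on counts in both stages. That rule was met by 1822 of the 7048 higher and 488 of the 7939 lower models. Its limit of 100 CPM was set on the TMM scale, where 2553 models on average reached it in yellow and 1528 in green leaves. On library totals these numbers were 2028 and 2048, so that the 1822 and 488 depend on the scale. The function of the models named by the rule is not given in the sources used here. Reads shared with near-identical or overlapping models could not be recognised. The models were picked by their fitted change in these same libraries, so that their estimates, p-values and intervals carry that selection. Turning leaves are given beside the named models on TMM factors from all 9 libraries.

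The largest rise was that of Gb_01456. It had 613, 900.4 and 1068 normalized CPM in yellow libraries 1, 2 and 3, against 0.747, 0.407 and 0.390 CPM in green libraries 1, 2 and 3. The green values rest on 30, 12 and 14 counts. That yellow and green libraries did not overlap was required by the rule. The log2 fold change was 10.64 ± 0.46 (SE; edgeR adjusted p = 8.4e-05), with a 95% interval of 9.51 to 11.78. Without both libraries of number 1 it was 11.28. In turning leaves the model had 9.07, 44.2 and 24.4 CPM, above all green and below all yellow libraries.

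The next rise was that of Novel01592. It had 6642, 8146 and 6628 normalized CPM in yellow libraries 1, 2 and 3, against 3.46, 7.80 and 14.1 CPM in green libraries 1, 2 and 3. The yellow libraries were close to each other and the green ones spread about their mean of 8.46 ± 5.36 (SD, n = 3). The log2 fold change was 9.92 ± 0.57 (SE; edgeR adjusted p = 0.000136), with pair values of 10.88, 10.01 and 8.87. In turning leaves it had 708, 1157 and 1739 CPM, between the levels of green and yellow leaves. Without the block, the log2 fold change was 9.33 without green library 1 and 10.31 without green library 3.

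The largest fall was that of Novel00054. It had 0.480, 3.84 and 0.806 normalized CPM in yellow libraries 1, 2 and 3, from 10, 74 and 15 counts, against 279, 740 and 79.4 CPM in green libraries 1, 2 and 3. Library 2 was the highest in yellow and in green leaves. The log2 fold change was -7.76 ± 0.51 (SE; edgeR adjusted p = 0.000242), and -7.74 ± 1.25 without the block (edgeR adjusted p = 0.00218). The highest adjusted p in any alternative was 0.0104. Turning leaves had 10.5, 11.5 and 4.65 CPM. Without the block, leaving out green library 2 gave -6.74 and leaving out yellow library 2 gave -9.14.

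Gb_41780 showed the next fall. It had 4.56, 33.3 and 5.48 normalized CPM in yellow libraries 1, 2 and 3, against 439, 4903 and 1163 CPM in green libraries 1, 2 and 3. Its level differed widely between libraries of one stage, and library 2 was again the highest in yellow and in green leaves. The model also differed between library numbers (edgeR test of the block, adjusted p = 0.0203). The fall was alike in the pairs, at -6.56, -7.20 and -7.71 on the log2 scale for numbers 1, 2 and 3. The fitted log2 fold change was -7.18 ± 0.32 with the block (SE; edgeR adjusted p = 7.26e-05) and -7.23 ± 1.40 without it (edgeR adjusted p = 0.00463). The highest adjusted p in any alternative was 0.0195. Without the block it was -5.82 without green library 2 and -8.74 without yellow library 2. In turning leaves the model had 478, 1121 and 135 CPM, each above the yellow library of the same number. Turning library 1 was close to green library 1, and turning libraries 2 and 3 lay below green libraries 2 and 3.

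**Figure D5:**
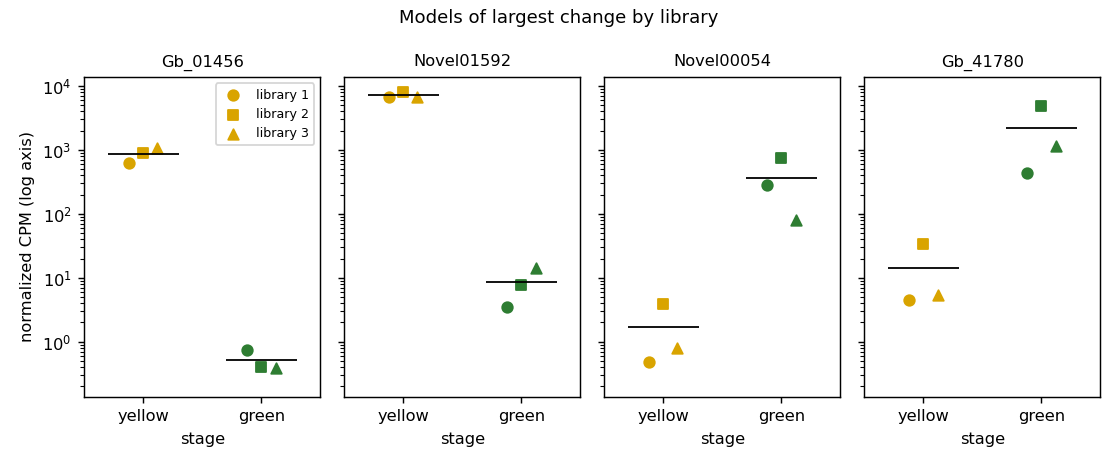
Normalized CPM (log axis) of the 4 models with the largest changes in the 3 yellow and the 3 green libraries, with symbols for the library number and lines for stage means. Gb_01456 and Novel01592 are higher in every yellow library, and Novel00054 and Gb_41780 are lower in every yellow library, with library 2 the highest of each stage for the models that fell.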

How the data were processed

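The authors deposited a table of unnormalized read counts, with gene models in rows and libraries in columns. The tools listed, per the submitters' processing notes, are HTSeq 0.6.1, HISAT2 2.0.4 and CASAVA 1.8, with no role stated. Genome build, annotation and strand setting were not given in the sources used here. Column names matched the sample titles.

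Counts of the 6 yellow and green libraries were tested with edgeR 4.0.16 (R 4.3.3). The low-count filter was filterByExpr (minimum count 10, minimum total 15), and libraries were scaled with TMM factors and fitted with glmQLFit (robust = TRUE) on stage and library number, which leaves 2 residual degrees of freedom moderated across models. Tests were two-sided, and p-values were adjusted over all models tested. A standard error is the fold change over the root of its F statistic. Pair fold changes used a prior count of 2. The test was checked on simulated data with few changed models, as many up as down. That setting has no shift in composition between stages, so that it does not cover the dependence on scaling seen here. Chi-square values per degree of freedom between libraries of a stage were 43.9 to 138, so no library repeats another.

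The block was set because the comparison is defined as paired by library number. In the data all 3 same-numbered pairs of deviations from stage means correlated above 0.1 (0.36 to 0.49). Pairs of different numbers gave -0.36 to -0.05. Deviations from a stage mean cancel over its libraries, so that these negative values are not separate evidence of pairing. Named models are those of largest change under the rule stated with them. The comparison, lists and rules were chosen with earlier results of these data known. Gene lists by pathway were not used, since no names were given. Alternatives were other scalings, filters and blocks, DESeq2 1.42.0, limma-voom (limma 3.58.1), all 9 libraries, and libraries left out.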

Additional observations from a re-analysis of the deposited data

How the results depend on the processing

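The number of called models stayed within 1.5 times of 14987 under all 19 alternatives, from 11382 without the block and green library 1 to 15924 with library totals, and the number changed by more than 2-fold under all 17 run for it (5815 to 9623). Without the replicate block 13618 models were called, and the pairing changed the call of none of the 4 named models. The number higher was 4096 with library totals, against 7048 with TMM. The median of all models was -0.80 with library totals, -0.43 with upper-quartile factors, -0.040 with DESeq2 size factors, -0.043 with the DESeq2 test, -0.16 without a filter, -0.083 with a 1 CPM filter, -0.11 with no replicate block, -0.072 with 9 libraries, and -0.14 to -0.095 with libraries left out, with -0.119 without number 3, -0.0996 without number 1, and -0.095, -0.0993 and -0.1004 without the block and green library 1, 2 or 3. The class medians were 0.51 and -0.91 with 5 classes and -0.29 and -1.51 with library totals, for the most and the fewest counts. The yellow-minus-green difference in models at 100 CPM (-20.0) was 20.7 at 1000 CPM, 1024 on the TMM scale, 6.83 without yellow library 2, 27.2 without green library 3, and -46.8 to 27.2 over all libraries left out. Models differing between numbers (342) were 683 with limma-voom (an alternative chosen after the data were seen), 923 without a filter, 1568 with 9 libraries, and 0 to 218 with a number left out. Models silent in green leaves (36) were 60 and 23 at 5 and 20 counts, and 44 to 75 with a library left out. Those silent in yellow leaves (62) were 127 and 28 at 5 and 20 counts, and 68 to 119 with a library left out. The causes were not tested. The share of moved counts (39.0%) ranged from 38.2% to 39.5%. With a block, leaving out 1 library also removes its partner from the comparison, so single libraries were left out without the block. Depth limits models below about 100 counts, where standard errors were largest.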
